A study of Mus musculus with 42 samples.

Results

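The paternal and maternal RNA of 9 neighbouring genes of the mouse X chromosome was followed from the 8-cell embryo to the tissues of the early postimplantation embryo. The genes are Otud5, Pim2, Slc35a2, Pqbp1, Timm17b, Hdac6, Suv39h1, Rbm3 and Tbc1d25, which is 9 of the 1052 X-linked genes in the allelic tables. They were chosen by position and by measured paternal shares: they lie in 1 chromosomal neighbourhood and several of them follow the median paternal share of an embryo only weakly in embryos with no maternal Eed. That choice came from measured values, so how weakly they follow it is described below with no test. All 9 were present in all 3 tables of allelic FPKM (fragments per kilobase of transcript, scaled to the number of mapped fragments).

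In the first table, wild-type female embryos of a C57BL/6N x PWK/PhJ cross were sampled as 8-cell embryos (3 samples), morulae (3), inner cell mass (ICM, 2) and trophectoderm (TE, 3) of the E3.5 blastocyst, epiblast (1), visceral endoderm (VE, 3) and extraembryonic ectoderm (ExE, 2) at E6.5, and yolk sac at E9.5 (1). In the second, morulae of the same cross were control males (4), control females (3), both labelled wild type, or females with the genotype Xp XRRa KO (4), named in the labels for XRRa on the paternal X, an element the labels do not define further. The third holds 13 single female E7.5 ExE samples called EedmNull, from Eedfl/fl;Gdf9-Cre mothers and wild-type PWK/PhJ fathers. The Gdf9 promoter drives Cre in oocytes, so these embryos lack the maternal supply of Eed, a subunit of Polycomb repressive complex 2, and still receive an intact paternal gene copy. No wild-type ExE of that age is in the table. The first and second tables hold 1 pooled column per group and allele, so their values have no replicate spread and no test could be made on them.

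In the female mouse embryo the paternal X is silenced first. This imprinted inactivation begins during cleavage and is kept in the trophectoderm and primitive endoderm lineages, which form ExE and VE, while the ICM reactivates the paternal X before the epiblast inactivates one X at random in each cell. Some X-linked genes keep RNA from the silent X and are called escape genes. The paternal share used here is the paternal FPKM over the sum of both alleles, for genes with a sum of at least 1 FPKM in that column. In control male morulae, which have no paternal X, the share of the 9 genes was 0% to 0.994% (highest in Timm17b), the background of reads given to the wrong allele. Fewer cells of a type and less RNA per cell cannot be told apart in these bulk samples.

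The RefSeq order along the chromosome is Otud5, Pim2, Slc35a2, Pqbp1, Timm17b, Hdac6, Suv39h1, Rbm3 and Tbc1d25, with Pcsk1n and Eras between Timm17b and Hdac6, Gata1 and Glod5 between Hdac6 and Suv39h1, and Was and Wdr13 between Suv39h1 and Rbm3. Promoter windows were found for 8 of the 9 genes, 11 windows of 300 bases in all (RefSeq, build GRCm38.p6, not the mm9 of the files). Rbm3 had no entry. Pqbp1 and Timm17b are transcribed away from each other. Of the 2 Pqbp1 windows, the one with its start nearer to Timm17b leaves 66 bases between the starts of both genes. That stretch is shown because these neighbours had close paternal shares in VE and ExE. Their shares were less close in TE (9.76% and 20.6%) and in control female morulae (31.7% and 48.9%). The 250 bases before the start of Slc35a2, the gene with the highest VE share of the 9, and of Hdac6, the gene with the lowest ExE share, follow. Capitals mark CCAAT and GGGCGG on either strand, and no 2 of these matches overlap. Each sequence reads 5′ to 3′ on the strand named.
Pqbp1-Timm17b, plus strand, chrX:7899270-7899335: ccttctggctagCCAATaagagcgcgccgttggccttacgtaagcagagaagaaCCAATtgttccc
Slc35a2, plus strand, chrX:7883994-7884243: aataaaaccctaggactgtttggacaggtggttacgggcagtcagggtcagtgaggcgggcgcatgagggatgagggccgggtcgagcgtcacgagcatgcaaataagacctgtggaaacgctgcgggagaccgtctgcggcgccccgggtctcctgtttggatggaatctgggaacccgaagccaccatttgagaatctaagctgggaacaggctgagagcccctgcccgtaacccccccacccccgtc
Hdac6, minus strand, chrX:7947890-7948139: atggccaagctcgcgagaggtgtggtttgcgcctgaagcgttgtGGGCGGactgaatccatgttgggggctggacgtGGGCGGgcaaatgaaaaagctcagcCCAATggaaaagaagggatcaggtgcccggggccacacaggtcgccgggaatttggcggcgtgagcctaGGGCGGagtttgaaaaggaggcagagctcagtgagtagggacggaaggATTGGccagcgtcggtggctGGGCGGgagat
The stretch shared by Pqbp1 and Timm17b holds 2 CCAAT matches, that of Hdac6 2 CCAAT and 4 GGGCGG matches, and that of Slc35a2 neither. CCAAT was in 8 of the 11 member windows, GGGCGG in 7 and TATAAA in 0. The 11 windows are not all separate: those of Otud5 overlap each other, and so do those of Pqbp1 and Timm17b. A match in shared bases is counted in each window that holds it. Among 845 windows of X-linked genes of the tables the shares with them were 46.4%, 42.1% and 11.95%, and among all 32851 windows 37.4%, 35.7% and 13.6%. The member windows held 13 to 37 CG pairs with a median of 21, against a median of 9 in windows of X-linked genes. These matches describe the letters of the windows only.

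In VE the 9 genes had paternal shares of 9.75% to 35.8% (median 17.3%), where the X-linked median was 0.606% over 320 measured genes and its upper quartile 1.68%. Slc35a2, a transporter of UDP-galactose into the Golgi, had the highest share, 35.8%, the third highest of the measured X-linked genes. Hdac6, a mainly cytoplasmic deacetylase that acts on tubulin, had 23.1%. Pqbp1, a splicing-related polyglutamine-binding protein, had 21.5% and Timm17b, a subunit of the mitochondrial inner membrane import complex, 20.4%. Rbm3, a cold-inducible RNA-binding protein, had 17.3%. The shares of Otud5 (a deubiquitinase), Tbc1d25 (a Rab GTPase-activating protein), Pim2 (a serine/threonine kinase) and Suv39h1 (a histone H3 lysine methyltransferase of heterochromatin) were 11.4%, 10.04%, 9.82% and 9.75%. Even the lowest of the 9, Suv39h1, exceeded 90.9% of the measured X-linked genes. A share of at least 20% was reached by 4 of the 9 genes in VE, against 2.81% of X-linked genes.

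The same order did not hold in ExE, where the 9 shares ran from 8.25% to 39.0% (median 19.5%) beside an X-linked median of 4.78% over 347 genes. Pim2 was highest at 39.0% and Rbm3 followed at 37.4%, then Slc35a2 at 30.0% and Suv39h1 at 23.4%. Timm17b and Pqbp1 lay at 19.5% and 19.1%, Tbc1d25 at 17.8% and Otud5 at 12.6%, and Hdac6 was lowest at 8.25%. Of the 9 genes 4 reached 20%, against 12.4% of X-linked genes. Pim2 had 4.0 times the share in ExE that it had in VE, and Hdac6 2.8 times the share in VE that it had in ExE. With 1 pooled column per tissue these differences have no error. The epiblast and pluripotency markers summed to 345 FPKM in ExE (7 of 11 at 1 FPKM or more, none at 0, Utf1 alone 276 FPKM), 55.8 FPKM in VE (3 of 11, 1 at 0) and 807 FPKM in epiblast (8 of 11, 2 at 0). The visceral and primitive endoderm markers summed to 243 FPKM in ExE and 2768 FPKM in VE, and those of extraembryonic ectoderm to 304 and 7.94 FPKM. The part of these marker levels in the ExE share of Pim2 was not tested.

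**Figure D1:**
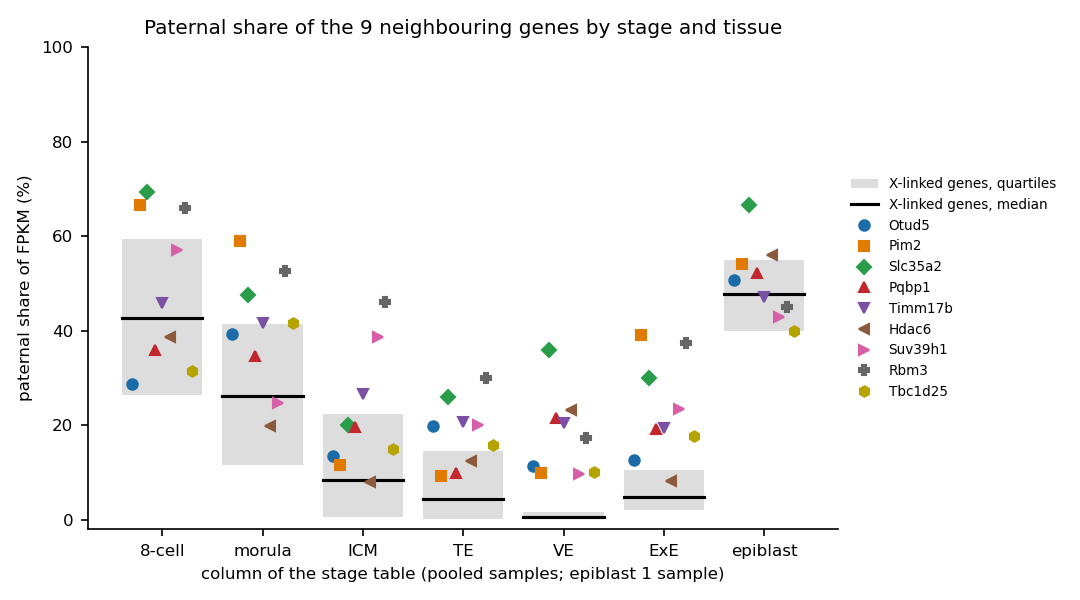
Paternal share in percent (y axis) of the 9 genes (symbols) in 7 columns of the stage table (x axis), with the median (line) and quartiles (grey) of all measured X-linked genes. In VE all 9 symbols lie above the grey band, between 9.75% and 35.8%, while in epiblast they lie around the X-linked median of 47.8%.

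Before implantation the genes had not shared 1 course. At the 8-cell stage their shares ran from 28.7% (Otud5) to 69.2% (Slc35a2), and their median of 45.9% lay near the X-linked median of 42.6%. All 9 reached 20% there, against 82.6% of X-linked genes. The coarse values of low genes limit these shares: maternal to paternal ratios were 1:2 for Pim2, 4:9 for Slc35a2 and 3:4 for Suv39h1, ratios of small whole numbers. In morulae the median was 41.5% against 26.1% for the X, with 8 of 9 genes at 20% or more beside 61.0% of X-linked genes. Hdac6 was lowest (19.9%) and Pim2 highest (58.9%).

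In the ICM the median of the 9 was 19.5% and in TE 19.8%, against X-linked medians of 8.33% and 4.42%. At least 20% was reached by 4 of 9 in each, beside 30.6% and 17.9% of X-linked genes, so the ICM count stood nearer to its background. Slc35a2 in ICM and Suv39h1 in TE were exactly at 20%, and Pqbp1 in ICM (19.5%) and Otud5 in TE (19.8%) lay just below. Rbm3 had the highest share of the 9 in both, 46.1% in ICM and 30.0% in TE. Suv39h1 had 38.7% in ICM and 20% in TE, the latter from a 4:1 ratio. Hdac6 in ICM (7.99%) lay just under the X-linked median, and Pim2 in TE (9.17%) and Pqbp1 in TE (9.76%) were the lowest of the 9 in that tissue. Trophectoderm markers summed to 1465 FPKM in ICM (10 of 10 at 1 FPKM or more) and 6149 FPKM in TE (10 of 10). The epiblast and pluripotency markers summed to 1044 FPKM in ICM (10 of 11) and 145 FPKM in TE (7 of 11). The part of these marker levels in the ICM shares was not tested. In epiblast, where either X can be silent, the 9 shares were 40% to 66.7% (median 50.8%) beside an X-linked median of 47.8%, and 9 of 9 reached 20%, as did 95.4% of X-linked genes. The yolk sac column was sparse, with 4163 genes at 1 FPKM or more against 7178 to 9164 in the others, and Eif2s3x, Hdac1 and Timm50, genes most cells use, were listed at 0 there. Of the 9 genes 7 were listed at 0, and the 3.6 FPKM of Hdac6, the only total of at least 1 FPKM, was listed as maternal, so no share is read from this column.

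Over the 7 columns, Timm17b stayed closest to the median profile of the 9, with a mean absolute difference of 2.13 percentage points, followed by Pqbp1 (4.68) and Otud5 (5.45). Rbm3 (13.1), Pim2 (12.4) and Slc35a2 (11.5) were farthest from it. Among 159 X-linked genes outside the 9 that were measured in all 7 columns, Utp14a (3.39 points), Ddx3x (4.27), Ftsj1 (4.85), Rpl36a (5.54) and Nkap (6.19) were nearest to the same profile. Ftsj1 lies 3 protein-coding genes from the members and the other 4 lie 57 to 666 genes away. Utp14a and Ddx3x are also on the list of known escape genes used below. Of the 159 genes, 87 were nearer to the profile than Rbm3, 76 than Pim2, 64 than Slc35a2 and 0 than Timm17b. The profile is the median of the 9 themselves, which shortens their own distances to it. Timm17b itself was that median at the 8-cell stage and in ExE.

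Position could be read gene by gene in VE. Of the 6 genes lying between the members, 4 were measured, with shares of 9.87% (Wdr13), 13.3% (Gata1), 13.8% (Eras) and 24.0% (Pcsk1n). On the Otud5 side, 10 of 15 flanking genes were measured at 0% to 7.5% (median 1.60%). The nearest measured gene there, Gripap1, had 4.24% and its neighbour Otud5 11.4%. On the Tbc1d25 side the 4 flanking genes had 14.8% (Ebp), 8.53% (Porcn), 15.2% (Ftsj1) and 2.2% (Slc38a5). Ebp and Ftsj1 were thus above Tbc1d25 (10.04%), the last of the 9 on that side. In ExE the contrast was less even: the 5 measured genes between the members ran from 0.875% (Gata1) to 40.5% (Wdr13, total 2.39 FPKM), and the Otud5 side reached 16.7% (Tfe3).

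**Figure D2:**
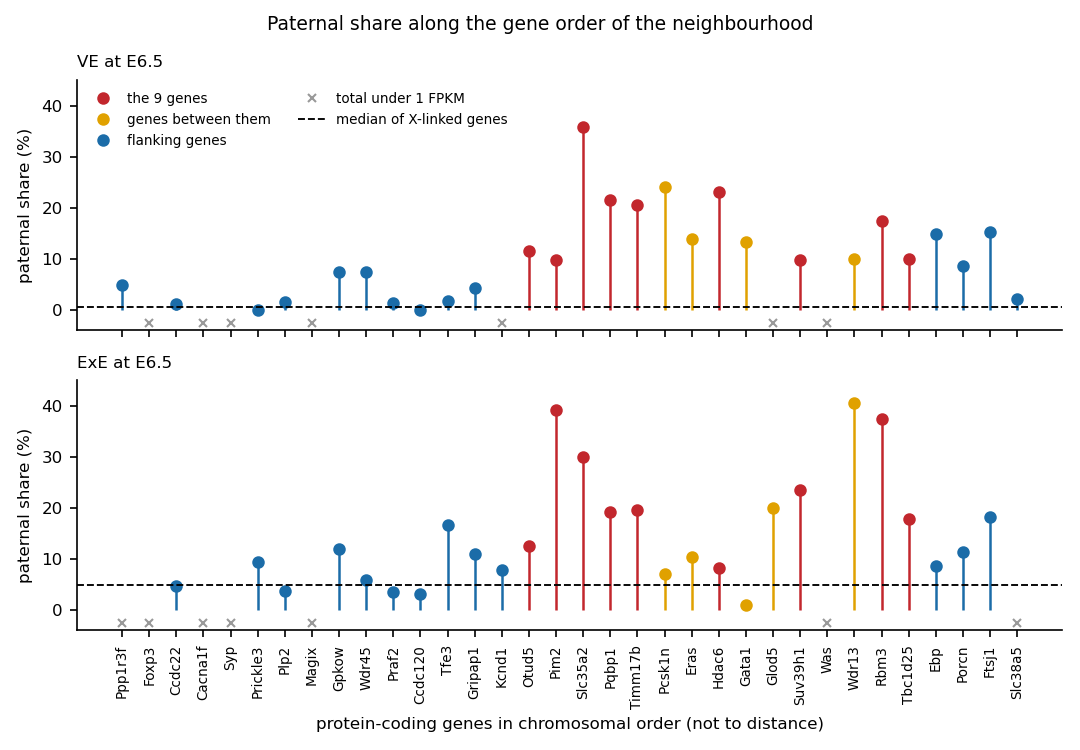
Paternal share in percent (y axis) of each protein-coding gene in chromosomal order (x axis, not to distance) in VE (top) and ExE (bottom), with the X-linked median dashed and genes under 1 FPKM as crosses. In VE the genes on the Otud5 side lie at 7.5% or less, and the 9 genes at 9.75% or more.

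Most of the autosomal genes listed as relatives or partners of the 9 genes had shares near equality. In VE the 18 listed genes, all measured, had a median of 50.9% (38.8% to 90.9%), and 16 of them lay between 35% and 65%. The other two were Pim1, at 75.5% to 99.1% over the 7 columns before yolk sac, and Timm23, at 81.0% to 90.9%. Suv39h2, the autosomal counterpart of Suv39h1, had 45.1% in VE, and Timm17a, that of Timm17b, 52.4%. Of the 8 genes listed for lysine 9 methylation of histone H3 and its readers, the median was 50.3% in VE and 48.8% in ExE. The 6 measured genes of a list of known escape genes had a median of 16.3% in VE and 23.5% in ExE, close to the 17.3% and 19.5% of the 9 genes.

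Total levels singled out different tissues for different genes. Pim2 ranged from 2.998 FPKM (both alleles, TE) to 426 FPKM in epiblast, with 38.8 FPKM in ExE and 6.32 FPKM in VE. Hdac6 had 1.11 FPKM at the 8-cell stage, the lowest total of any gene and column kept, and 5.63, 8.49, 4.10 and 7.30 FPKM in morula, ICM, TE and epiblast. It then stood at 31.9 FPKM in VE and 43.0 FPKM in ExE. The paternal Hdac6 level was nevertheless higher in VE (7.38 FPKM) than in ExE (3.55 FPKM).

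Suv39h1 was highest in VE (43.0 FPKM, of which 4.19 FPKM paternal), against 3.80 to 12.3 FPKM in the other 6 columns. Its low VE share thus went with the highest maternal level of this gene, 38.8 FPKM, while its paternal level was 1.33 to 5.27 FPKM over all 7 columns. Rbm3 held 89.9 FPKM (VE) to 224 FPKM (epiblast), and its paternal level ranged from 15.5 FPKM in VE to 101 FPKM in epiblast. Rbm3 overlaps the long noncoding gene Rbm3os, and reads of the 2 cannot be told apart in libraries without strand. Tbc1d25 peaked in ICM (21.9 FPKM) and was 1.25 FPKM in epiblast, the total nearest the threshold after Hdac6. Pqbp1 was highest at the 8-cell stage (124 FPKM) and lowest in TE (24.4 FPKM). Timm17b lay between 27.6 and 83.1 FPKM, Otud5 between 6.22 and 15.4 FPKM and Slc35a2 between 2.02 and 5.98 FPKM.

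**Figure D3:**
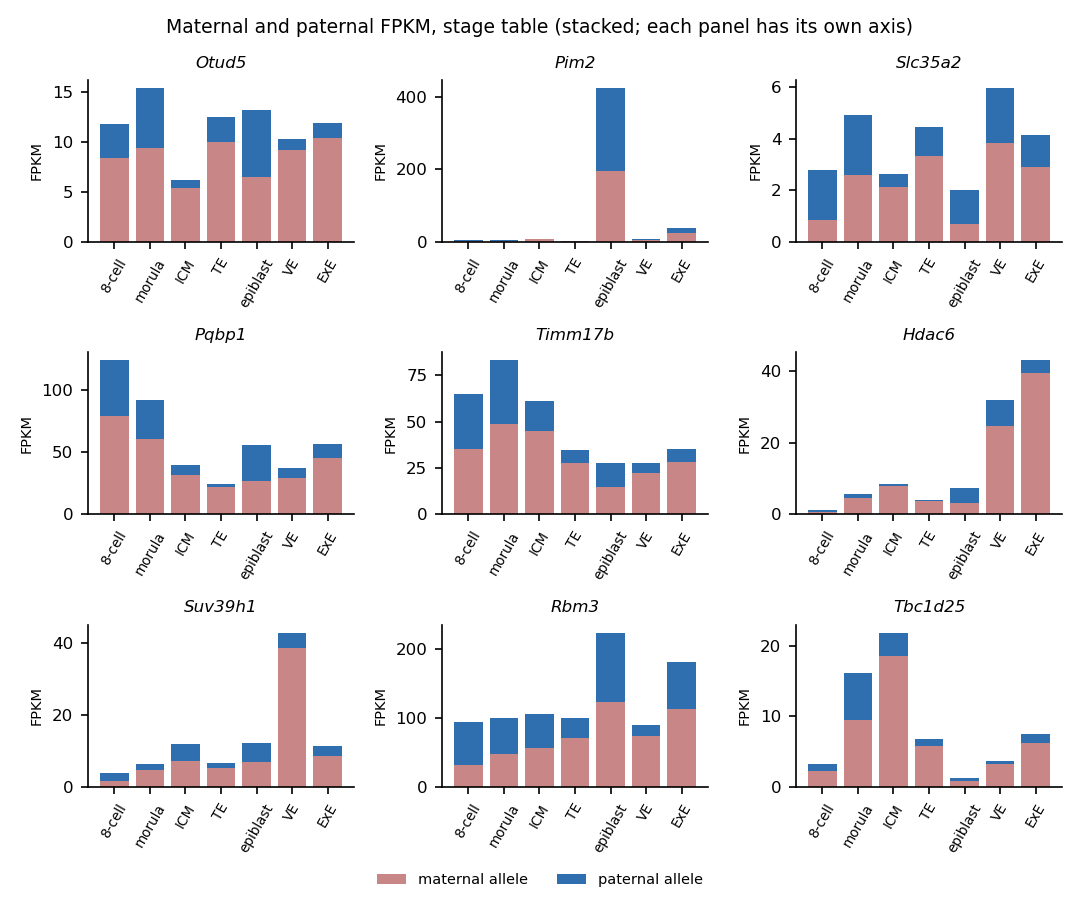
Maternal (red) and paternal (blue) FPKM of each of the 9 genes, stacked (y axis, FPKM, own scale per panel), in 7 columns of the stage table (x axis). Pim2 reaches 426 FPKM in epiblast with both alleles, and the high bar of Suv39h1 in VE is almost wholly maternal.

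In morulae with XRRa deleted on the paternal X, the shares of 7 of the 9 genes were at least 10 points higher than in control females, and the median difference was 10.7 points (range -3.57 to 36.5). Over 242 X-linked genes the median difference was 20.8 points and 73.6% were at least 10 points higher, so the count for the 9 is near the background and their median difference is smaller. Pim2 had a share of 45.9% in control females and 82.5% in the deletion. Its paternal level was higher there (2.79 and 5.86 FPKM) and its maternal level lower (3.29 and 1.25 FPKM). Hdac6 went from 1.65% to 36.7%, and Otud5 from 35.4% to 56.8%. Suv39h1 had 39.6% and 55.1%, Pqbp1 31.7% and 42.4%, Slc35a2 39.97% and 50.5%, and Rbm3 36.1% and 46.4%. Timm17b stayed at 48.9% and 48.7%, and Tbc1d25 had 50.9% and 47.4%. The members just inside and just outside the 10-point threshold were Rbm3 (10.3 points) and Timm17b (-0.14 points).

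The median of the 9 in control females was 39.6%, above the X-linked 29.3%, and in the deletion it was 48.7%, below the X-linked 54.2%. At least 20% was reached by 8 of 9 genes in control females (background 66.8%) and 9 of 9 in the deletion (96.4%). Hdac6 is the exception among the 9, and its control value rests on 0.0420 FPKM of paternal RNA beside 2.50 FPKM maternal. In the wild-type female morulae of the stage table the same gene had 19.9%. Measured from that table, the deletion column was 16.8 points higher for Hdac6, 30.3 points higher for Suv39h1 and -6.20 points for Rbm3, and 4 of the 9 genes were at least 10 points higher, beside 77.8% of 234 X-linked genes (median 24.6 points). The member count thus stood near its background against the control females and below it against the stage-table morulae. These morulae and their tables are not alike, and the part of this in the differences was not tested. Trophectoderm markers summed to 286 FPKM in the stage-table morulae, 757 FPKM in control females and 494 FPKM in the deletion. Among genes under 3 FPKM, the alleles stood in whole-number ratios in 78.2%, 9.93% and 7.67% of cases.

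Paternal levels, compared as log2 ratios on FPKM + 1, which understates low genes, had a median of 0.68 in the 9 (0.93 over 141 X-linked genes with at least 5 FPKM). Of the 5 members with at least 5 FPKM from the paternal allele, 0 reached a 2-fold higher paternal level on that scale, against 46.8% of X-linked genes. Pim2, with 2.79 FPKM in control females and 5.86 FPKM in the deletion (log2 ratio 0.86), passed 2-fold when nothing was added, which makes 1 of 5 against 51.1%. Timm17b was lower on both alleles, 40.3 and 29.9 FPKM paternal and 42.1 and 31.4 FPKM maternal. Tbc1d25 was higher on both, 2.01 and 4.02 FPKM paternal and 1.93 and 4.47 FPKM maternal, with almost the same share. Of the 8 members with a total of at least 5 FPKM, 0 were 2-fold higher in total on the FPKM + 1 scale, beside 15.1% of X-linked genes. With nothing added it was 1 of 8, Tbc1d25 (3.94 and 8.48 FPKM), beside 17.7%. Trophectoderm markers summed to 757 FPKM in control females (9 of 10 at 1 FPKM or more, 0 at 0) and 494 FPKM in the deletion (9 of 10, 1 at 0), and their part in these differences was not tested.

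**Figure D4:**
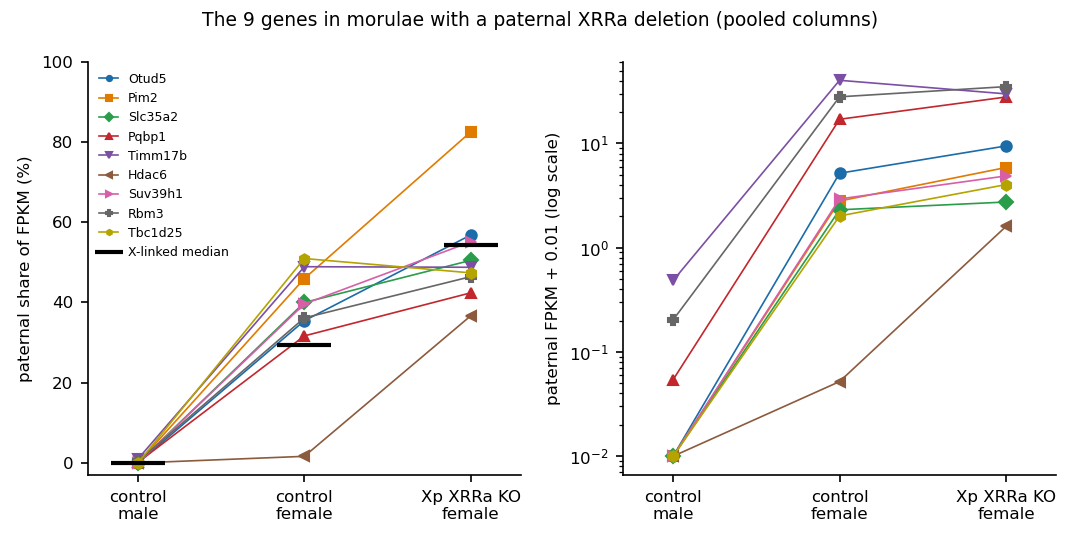
Paternal share in percent (left) and paternal FPKM plus 0.01 on a log axis (right) of the 9 genes in pooled control male, control female and Xp XRRa KO female morulae (x axis), with the X-linked median as black bars. Hdac6 starts lowest in control females (1.65%) and Pim2 ends highest (82.5%), while Timm17b (48.9% and 48.7%) and Tbc1d25 (50.9% and 47.4%) are not higher in the deletion.

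The 13 EedmNull embryos differed widely from each other. The X-linked median of the paternal share ran from 0% in embryo 4 and 0.213% in embryo 1 to 62.2% in embryo 11 and 80.5% in embryo 13, with 272 to 301 genes measured in each. In embryo 1 the 9 genes had 7.79% to 35.7% (median 21.9%) and in embryo 4 2.94% to 21.7% (median 9.43%), all 9 above the embryo's X-linked median in each. In embryos 3 and 5, whose X-linked medians were 6.22% and 7.003%, the medians of the 9 were 33.6% and 30.2%, again with 9 of 9 above. Embryo 13 was the opposite case: the 9 shares were 42.9% to 80.4%, and none exceeded the X-linked 80.5%. Why the paternal share of the whole X exceeded that of every other embryo there was not tested, so values that rest on this embryo are also given without it. Across the other 8 embryos 1 (embryo 11) to 8 (embryo 7) of the 9 genes lay above the X-linked median. These counts restate the weak following by which the genes were picked, and they are not particular to the 9. Of 6 measured genes on the list of known escape genes, 6 lay above in embryos 1 and 4, 5 in embryos 3 and 5, and 0 in embryo 13. Of the measured flanking genes 9 of 11 lay above in embryo 1 and 10 of 12 in embryo 3. In embryos 4, 5 and 13 the flanking genes went less with the 9, with 5 of 11, 6 of 11 and 7 of 12 above.

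Rbm3 varied least. Its share was 21.7% in the lowest embryo (4), 41.7% in the median and 56.9% in the highest (11), with a mean of 41.0% ± 10.2 (SD, n = 13). Hdac6 varied most, from 2.94% in embryo 4 through a median of 39.5% to 80.4% in embryo 13, mean 39.1% ± 23.9 (SD, n = 13). Without embryo 13 the Hdac6 mean was 35.7% ± 21.3 (SD, n = 12) with a highest share of 63.4%, and the SD of Slc35a2, at 21.4 points, was then as large. In embryo 4 Hdac6 had 30.7 FPKM maternal and 0.930 FPKM paternal, and in embryo 13 8.28 and 33.9 FPKM, so the latter was higher on the paternal and lower on the maternal allele. Rbm3 had 81.5 and 22.6 FPKM in embryo 4 and 71.1 and 75.1 FPKM in embryo 13.

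Slc35a2 had no paternal RNA in embryo 10 (0 of 1.71 FPKM), a median of 46.7% and a highest share of 66.7% (embryo 6), mean 41.8% ± 20.5 (SD, n = 13). Its totals were only 1.71 to 3.67 FPKM, so these shares are coarse. Suv39h1 ran from 15.0% (embryo 4) to 69.2% (embryo 7) with a median of 41.2%, mean 44.0% ± 15.7 (SD, n = 13), at totals of 3.14 to 9.18 FPKM. Without embryo 13 the highest share of Tbc1d25 was 58.6%. It was the only gene of the 9 below the X-linked median share in most embryos, above it in 4 of 13, with a lowest, median and highest share of 9.43%, 24.4% and 75.6% over all 13. Otud5 (median 40.7%), Pim2 (45.6%), Pqbp1 (40.7%) and Timm17b (38.7%) lay above it in 10, 11, 10 and 10 embryos.

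How closely each gene followed the embryo was the ground for picking them and is given as a description. On the scale log2 of paternal over maternal FPKM + 1, the slope on the embryo median was 0.25 for Slc35a2, 0.42 for Suv39h1, 0.45 for Rbm3 and 0.58 for Tbc1d25. Otud5 had 0.75, Pqbp1 0.85, Pim2 0.92, Timm17b 0.93 and Hdac6 1.27, and the median over 300 X-linked genes was 1.004. A pseudocount of 1 FPKM pulls the ratios of low genes toward 0, and the order of the 9 depended on it. With 0.1 FPKM in its place the X-linked median slope was 1.02, and all 9 genes lay below it. The slopes were then 0.26 for Rbm3, 0.27 for Slc35a2, 0.36 for Suv39h1, 0.50 for Tbc1d25, 0.52 for Pqbp1, 0.54 for Otud5, 0.60 for Timm17b, 0.61 for Pim2 and 0.81 for Hdac6. Slc35a2, Suv39h1 and Rbm3 thus had the 3 lowest slopes of the 9 at both pseudocounts and Hdac6 the highest, while Timm17b, Pim2 and Pqbp1 were near the X-linked median at 1 FPKM only. Without embryo 13 the slopes at 1 FPKM were 0.34 for Slc35a2, 0.46 for Suv39h1, 0.50 for Rbm3 and 1.25 for Hdac6.

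The mean offset of each gene from the X-linked median, at the average embryo, comes from the same values that chose the genes, so it is given as a description and nothing is read from its calls. On the log2 scale it was 0.52 for Slc35a2 (SE 0.15, above the embryo median in 10 of 13 embryos) and 0.52 for Suv39h1 (SE 0.12, 9 of 13). Otud5 had 0.26, Rbm3 0.23, Pim2 0.22, Pqbp1 0.12, Tbc1d25 0.11, Timm17b 0.10 and Hdac6 -0.0027. In the limma fit over 300 X-linked genes, 2 of the 9 (Slc35a2 and Suv39h1) were called higher and 0 lower, where 28.3% of the genes were called higher and 28.3% lower. Without embryo 1 Slc35a2 was not called, and without any 1 of embryos 6 and 8 to 13 Rbm3 was called too. With no covariate 0 of 9 were called, beside 11.3% of X-linked genes higher. With a pseudocount of 0.1 FPKM 6 of 9 were called higher beside 19.7%, at a mean total of at least 5 FPKM 5 of the 7 members left beside 24.4%, and with no filter on low values 0 of 9 higher (39.1%) and 6 of 9 lower (35.2%). The sign of these offsets thus depended on which genes set the reference median.

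**Figure D5:**
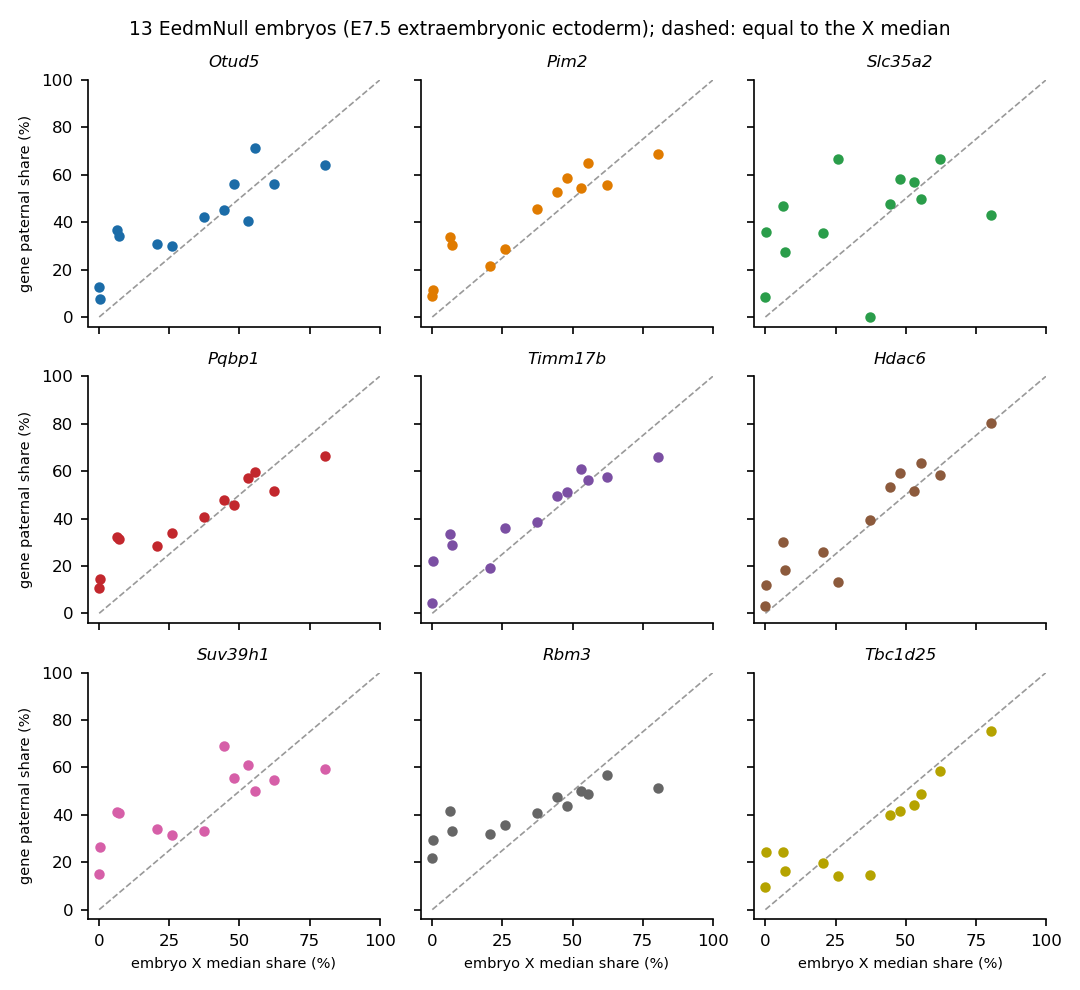
Paternal share in percent of each of the 9 genes (y axis) against the X-linked median share of the embryo in percent (x axis) in 13 EedmNull embryos (points), with equality dashed. Rbm3 stays between 21.7% and 56.9%, while Hdac6 runs from 2.94% to 80.4% along the line.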

How the data were processed

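Smart-seq2 libraries of 42 mouse samples were used through 3 tables of allelic FPKM that the authors deposited, and per the submitters' processing notes Trim Galore 0.6.4, HISAT2 2.2.0, StringTie 2.1.1 and mm9 were used. The method of allele assignment is not given in the sources used here. Pooled columns, 1 per group and allele, make up the stage and morula tables, and the EedmNull file has a column per embryo and allele for X-linked genes only. Depth is unknown: the alleles of low genes stand in ratios of small whole numbers in the stage and EedmNull tables. These ratios gave no read counts, so no counting interval is given. In the morula table most low genes do not stand in such ratios, so its allele values may have been computed otherwise. The members and lists were chosen with earlier results of these data known.

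From these values the paternal share was computed where the total reached 1 FPKM. Offsets in EedmNull embryos were fitted with limma 3.58.1 (R 4.3.3) on log2 of paternal over maternal FPKM + 1, minus the median over X-linked genes of the embryo, with the centred median as covariate, for genes with a mean total of at least 1 FPKM. Adjusted p-values are Benjamini-Hochberg over all genes tested. A gene counts as called at an adjusted p under 0.05. Since the members were chosen on the same values, their offsets and calls are given as a description only. No conclusion about the members is drawn from these calls. The code was tested on simulated data. Whether embryos share a litter is not stated, so p-values measure the spread between these embryos only. Pooled columns were described with no test: a share of at least 20%, a difference of at least 10 points and a 2-fold level with at least 5 FPKM in 1 column count as called. All 9 members are named, and of other genes the 5 nearest in profile, the neighbours, and list examples. Alternatives were the pseudocount, the filter, the covariate, the reference and leaving out each embryo. RefSeq tables of GRCm38.p6 gave gene order and promoter windows, and motifs were searched by exact match on both strands.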

Additional observations from a re-analysis of the deposited data

How the results depend on the processing

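The EedmNull offsets were the results most open to the processing. X-linked genes called (170 of 300) became 431 of 580 with no filter on low values, 84 of 180 at a mean total of at least 5 FPKM and 71 with no covariate. Members called higher (2 of 9, beside 28.3% of X-linked genes) became 6 of 9 with a pseudocount of 0.1 FPKM (19.7%), 0 of 9 with no filter (39.1%), 5 of 7 tested at a mean total of at least 5 FPKM (24.4%) and 0 of 9 with no covariate (11.3%). Members called lower (0) became 6 with no filter (35.2%). The members were chosen on the same values, so nothing about them is read from these counts. The mean embryo median on which offsets rest moved from -0.77 to -0.20 with no filter, -1.35 with the smaller pseudocount and -1.08 at 5 FPKM. With no filter 8 offsets turned from positive to negative: Otud5 -0.31, Pim2 -0.34, Slc35a2 -0.045, Pqbp1 -0.45, Timm17b -0.47, Suv39h1 -0.046, Rbm3 -0.34 and Tbc1d25 -0.45. The Hdac6 offset was negative both with and without the filter. Hdac6, at -0.0027, became 0.45 with the smaller pseudocount, 0.31 at 5 FPKM and 0.0071 with the median taken without the members. Leaving out 1 embryo at a time gave 141 to 190 genes called, 1 to 3 members called higher, Hdac6 offsets of -0.063 to 0.13 and Tbc1d25 offsets of -0.0099 to 0.19. The members' median slope, 0.75, was 2.73 with no filter. Of the pooled results, members at least 10 points higher in the XRRa deletion (7) became 4 against the stage-table morulae, where 77.8% of X-linked genes were (73.6% against control females). With no pseudocount, an alternative chosen after seeing the data, members 2-fold higher in the deletion went from 0 to 1 on the paternal allele (Pim2) and from 0 to 1 in total (Tbc1d25). The cause was not tested beyond the moved median and the fewer or more genes tested. The other 90 recomputed summary values moved by at most 1.5 times (counts) or less than 1 SD over the members (medians, with no replicate columns). No paired analysis was possible because the pooled tables have no replicate columns and the EedmNull embryos are 1 group. Low totals limit the shares of Slc35a2, Suv39h1, Tbc1d25 and, before implantation, Hdac6 and Pim2.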
